A study of Rattus norvegicus with 30 samples.

Results

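Cytosolic ribosomal proteins are the structural proteins of the ribosomes in the cytoplasm, and their messenger RNAs were measured here in the livers of male animals fed phenobarbital (PB). The members were the rat genes whose symbol is Rpl or Rps plus a number with at most 1 trailing letter, together with Rplp0, Rplp1, Rplp2 and Rpsa, matched through the transcript accession of each array probe. Of 77 such genes in RefSeq, 73 had a probe, and they stood among 26912 features, each a named gene or an unmatched probe: 41 belong to the large (60S) subunit, 3 to the stalk of that subunit (Rplp0, Rplp1, Rplp2) and 29 to the small (40S) subunit. The others were not analysed here. Each member was represented by 1 probe, the brightest on average over the 16 rat arrays, and 44 members had at least 1 more probe, which was used as a second reading.

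The study compared how the liver responds to PB in rats, in rats without the constitutive androstane receptor (CAR, the nuclear receptor through which PB acts), and in mice whose livers carry transplanted rat hepatocytes. All animals were male and received a powdered diet for 7 days with 0 ppm PB (control) or 1000 ppm PB. Outbred rats of the stock Crl:CD(SD), below SD rats, gave 4 arrays on each diet, the CAR KO rats gave 4 on each diet, and the chimeric mice with rat hepatocytes gave 7 on each diet. The labels call the arrays biological replicates; they do not give the age of any animal, the background or deleted part of the CAR KO line, or the mouse host and the extent of its repopulation. Chimeric livers keep mouse cells other than the transplanted hepatocytes, and whether mouse transcripts bind the rat probes was not tested.

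A ribosome joins 1 small subunit, which reads the messenger RNA, to 1 large subunit, which forms the peptide bonds, and each has its own set of proteins. Most of these proteins are held in place on ribosomal RNA, while the stalk proteins P0, P1 and P2 recruit the translation factors. In vertebrates their messenger RNAs belong to the TOP class (5′ terminal oligopyrimidine): transcription starts at a C followed by a stretch of C and T, a feature through which mTORC1 and LARP1 control their translation together. The members are therefore often read as 1 block, and several of them (Rplp0, Rpl13a, Rps18) are widely used as reference genes for RNA measurements.

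The start sites below show that feature for members on which the results turn. Each window runs 5′ to 3′ on the gene's strand over 15 bases before and 15 bases from the annotated start, from RefSeq on GRCr8, and capitals mark the longest run of 5 or more pyrimidines.
Rplp0: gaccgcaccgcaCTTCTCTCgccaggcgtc
Rplp1: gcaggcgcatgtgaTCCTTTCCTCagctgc
Rpl14: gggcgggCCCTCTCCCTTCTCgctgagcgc
Rpl10: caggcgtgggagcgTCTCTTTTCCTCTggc
Rps18: cacgtcacttccgCTCTCTCTTCCacagga
Rps14: cccttccgTCTCTCTCTTTCCggtggagga
Rps4x: tccagcgcgcgcagCCTCCgaccctaattt
Rpsa: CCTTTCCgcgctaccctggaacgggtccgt
Rps19: cccgacttgtgcgcccgggaaaccccgtcg
Rpl11: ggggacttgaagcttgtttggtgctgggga
Rplp0 lies at chr12:46718376-46718405 on the minus strand, Rplp1 at chr8:71290858-71290887 on the minus strand and Rpl14 at chr8:129163605-129163634 on the plus strand. Rpl10 lies at chrX:157205835-157205864 on the plus strand, Rps18 at chr20:4933730-4933759 on the plus strand and Rps14 at chr18:56498245-56498274 on the plus strand. Rps4x lies at chrX:71342907-71342936 on the minus strand, Rpsa at chr8:128728864-128728893 on the plus strand, Rps19 at chr1:89608673-89608702 on the plus strand and Rpl11 at chr5:153560788-153560817 on the minus strand. The pyrimidine run crosses or touches the start in Rplp0, Rplp1, Rpl14, Rpl10, Rps18, Rps14 and Rps4x, lies before it in Rpsa, and is missing from the windows of Rps19 and Rpl11.

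Of the 73 members, 59 had a promoter entry. On the gene's strand, 23 of the 59 (39.0%) had an annotated start at a C followed by at least 4 pyrimidines, against 881 of 33469 promoters in all (2.63%). A run of at least 7 pyrimidines within 15 bases of the start, on either side, was present in 45 of 59 members (76.3%) and in 17.9% of all promoters. The mitochondrial ribosomal proteins, which belong to a separate ribosome and are not in the TOP class, held that run in 13 of 60 entries (21.7%), and 12 entries of TOP-class translation factors held it in 8 (66.7%), although 0 of those 12 had the C start. These counts describe annotated windows, which depend on where RefSeq places the start.

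Every member was well above background on all 30 arrays, and no spot outside the controls was saturated. Their signals ran from 69 to 224182 fluorescence units with a median of 38482, so most members sat near the top of the array's range, where the brightest spot of any gene read 405269. Levels are given below as log2 of the signal minus the array's 75th percentile, so a level of 0 is that percentile; levels of different probes are not compared. Every member has at least 1 pseudogene copy in RefSeq (median 11, highest 36), and a probe may also bind transcripts of such copies.

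The median level of the 73 members was 6.40 ± 0.017 (SD, n = 4) in SD control rats, 6.49 ± 0.057 (n = 4) in SD PB rats, 6.18 ± 0.081 (n = 4) in CAR KO control rats and 6.17 ± 0.043 (n = 4) in CAR KO PB rats. It was 7.26 ± 0.20 (n = 7) in chimeric control and 7.24 ± 0.22 (n = 7) in chimeric PB livers. The scaling enters these values: the 75th percentile itself was 443 ± 20.4 in SD control, 506 ± 23.9 in CAR KO control and 280 ± 39.3 units in chimeric control livers. Before scaling, the log2 signal of the members' median was 15.19 ± 0.067, 15.16 ± 0.13 and 15.38 ± 0.075 in those groups. The chimeric arrays with the lowest 75th percentile, PB 4 (197 units) and control 4 (216 units), also had the highest or joint highest member medians (7.60 and 7.52).

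**Figure D1:**
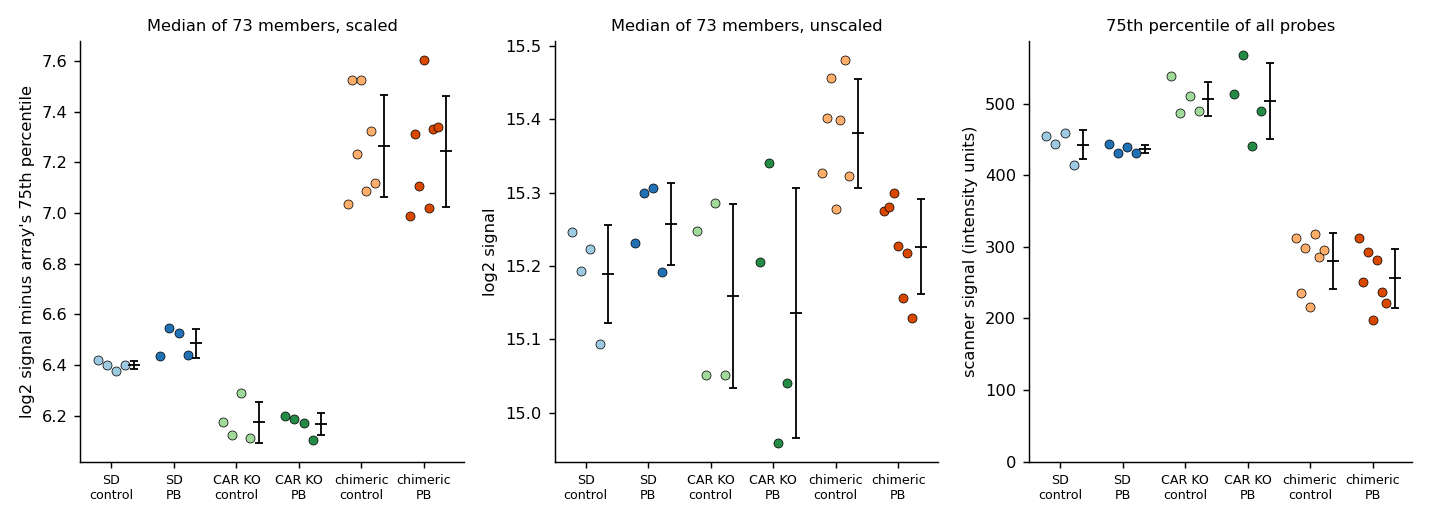
Median of the 73 members on each array (left: log2 relative to the array's 75th percentile; middle: log2 signal before scaling; right: that percentile in fluorescence units, from 0), by group, with points for arrays and bars for mean ± SD. The scaled median is highest in the 14 chimeric arrays (6.99 to 7.60) and lowest in the CAR KO groups (6.11 to 6.29), while the mean percentile used for scaling is lowest in the chimeric groups and highest in the CAR KO groups, whose arrays overlap the SD arrays.

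The arrays lay on 4 slides. All SD arrays shared 1 slide and all CAR KO arrays another, so animal model and slide cannot be told apart; within both, control arrays sat in the first row and PB arrays in the second, so diet and row cannot be told apart either. All 7 chimeric control arrays and PB 1 shared a slide, and PB 2 to 7 lay on another. The hepatocyte markers were high in every group, with summed levels of 3902 to 5710 times the 75th percentile. The 2 probes for Nr1i3, the gene of CAR, gave overlapping levels in SD and CAR KO rats (0.76 to 1.88 and 0.69 to 1.35 on the control diet for the brighter probe); the sources used here do not say where they lie relative to the deletion, so they do not check the label.

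In SD rats, PB left the ribosomal protein block almost where it was. Among the 73 members, 1 was higher and 0 were lower in the PB group at an adjusted p under 0.05, against 4.3% of the 17009 features tested (2.5% higher, 1.8% lower). The member that rose was Rps4x, a small-subunit protein encoded on the X chromosome. The median difference over the members was 0.06 (log2, PB minus control) with 61 of 73 above 0, beside -0.02 over all features, and it was positive under every scaling tried.

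Rps4x read 4.15, 4.09, 4.12 and 4.06 in the 4 SD control livers and 4.63, 5.26, 5.07 and 4.35 in the 4 SD PB livers. All 4 PB livers lay above all 4 controls, and the PB livers were more spread than the controls (SD 0.41 against 0.040). The difference was 0.72 ± 0.15 (SE), a 1.65-fold rise (limma, Benjamini-Hochberg adjusted p = 0.0129; 0.000986 to 0.113 over the other settings). With the spread estimated from the 8 SD arrays alone the adjusted p was 0.113 and no member passed. Rps4x has 1 probe, so no second reading of it exists.

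The other members moved little. Among the large-subunit proteins, Rpl13 (difference 0.19 ± 0.079, adjusted p = 0.197), Rpl4 (0.18 ± 0.063, adjusted p = 0.118) and Rpl5, which carries 5S ribosomal RNA into the subunit (0.18 ± 0.084, adjusted p = 0.247), had the largest positive differences without passing the test. Rpl36a had the lowest difference (-0.13 ± 0.16, adjusted p = 0.688). The stalk proteins differed by 0.06 (Rplp0), 0.02 (Rplp1) and 0.10 (Rplp2). Rplp0 read 8.22, 8.14, 8.17 and 8.07 in controls and 8.18, 8.24, 8.19 and 8.22 in PB livers, so the groups overlapped. Rps6, the small-subunit protein phosphorylated by S6 kinase, read 5.63, 5.52, 5.62 and 5.52 in controls and 5.71, 5.73, 5.73 and 5.60 under PB, a difference of 0.12 (adjusted p = 0.30), also with overlap. The remaining proteins given in every comparison did not pass: Rpl3, which lies near the peptidyl transferase centre, differed by 0.16, and Rpl11, Rps27a, Rpsa, Rps18, Rps19, Rpl22, Rps3 and Rpl13a by -0.04 (Rpl13a) to 0.07 (Rpl11). Of 56 additional probes of 44 members, 0 were higher and 1 was lower: a probe of Rpl36a that is far dimmer than the one used (level -4.91) and differed by -0.45 ± 0.10 (adjusted p = 0.0251).

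In SD rats, genes that build or serve ribosomes are read against the 2.5% of all features that were higher and the 1.8% that were lower. Of 37 factors for ribosomal RNA processing and subunit assembly, 2 rose: Nop16, a nucleolar factor of the large subunit (0.31, adjusted p = 0.00833), and Imp4, of the small-subunit processome (0.18, adjusted p = 0.0431). The median of these 37 was 0.19 with 35 above 0, and no test compared them with the members. Of 66 mitochondrial ribosomal proteins, 4 rose and 0 fell, among them Mrpl14 (0.47, adjusted p = 0.00246) and Mrps2 (0.27). None of 16 translation factors of the TOP class, such as the elongation factors and poly(A)-binding protein, passed the test.

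In CAR KO rats almost no feature passed the test for PB. Of the 73 members 0 passed, against 0.205% of 17551 features tested (0.0513% higher, 0.154% lower), and 0 reached an unadjusted p under 0.05. The largest difference was 0.17 (Rpl36a), and the median was 0.02 beside -0.02 over all features. The stalk genes differed by -0.04 (Rplp0), 0.05 (Rplp1) and 0.02 (Rplp2), and Rpl5, Rpl11, Rps6 and Rpsa by -0.01 (Rps6) to 0.04 (Rpsa). Rps4x read 3.84, 3.85, 4.06 and 3.92 in the controls and 4.04, 3.95, 4.01 and 3.91 under PB, a difference of 0.06, and the groups overlapped. No factor of ribosome assembly and no mitochondrial ribosomal protein passed either.

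Whether the response to PB differed between CAR KO and SD rats was tested directly. Of the 73 members, 0 passed, against 0.533% of 17812 features (0.107% higher, 0.427% lower), and 1 reached an unadjusted p under 0.05. That member was Rps4x, whose response was lower by 0.66 ± 0.21 in CAR KO rats (difference of differences -0.66, adjusted p = 0.186). Without SD PB 4, the SD liver with the lowest Rps4x level under PB, it was -0.82 and passed (adjusted p 0.0313 to 0.427 over the settings). Rpl4 (-0.17), Rpl36a (0.30) and Rps21 (0.14) did not pass. The median over members was -0.04 beside -0.01 over all features, and 0.02 with arrays centred on their median. Of the assembly factors, Nop16 responded less in CAR KO rats (-0.43, adjusted p = 0.0298).

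**Figure D2:**
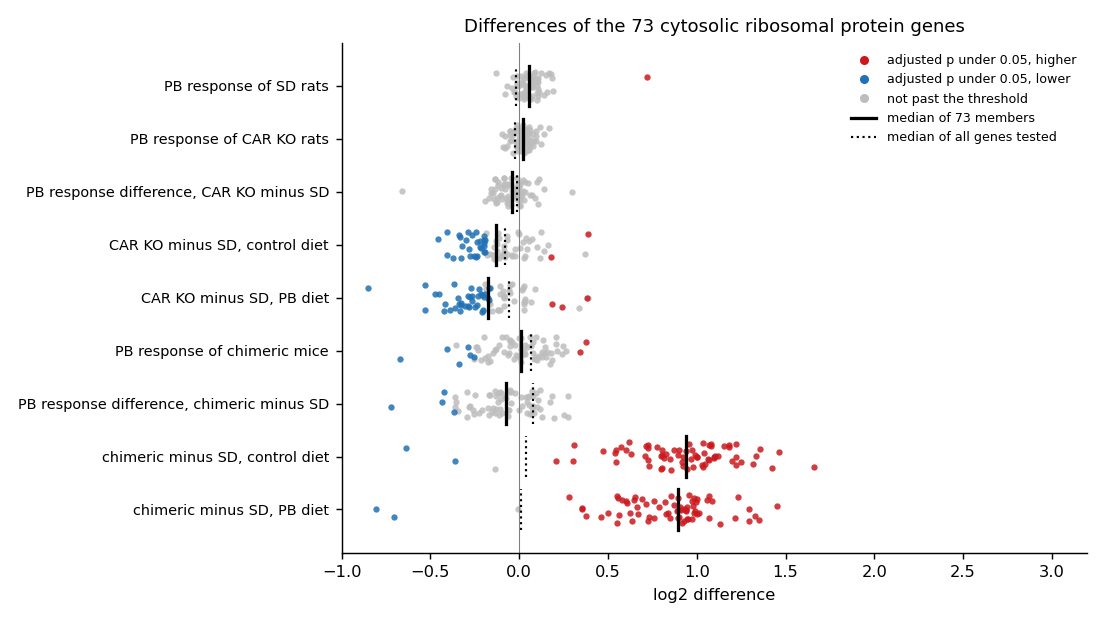
Log2 difference of each of the 73 members (1 point each) in the 9 comparisons, red where higher and blue where lower at an adjusted p under 0.05 and grey otherwise, with a solid line at the members' median and a dotted line at the median of all features. The points cluster at 0 for PB in both kinds of rat (medians 0.06 and 0.02), lie mostly below 0 for CAR KO minus SD (-0.13 and -0.18, which become 0.06 and 0.02 with no scaling between arrays) and far above 0 for chimeric minus SD (0.94 and 0.89).

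With the scaling used here, more members passed between the 2 rat models on the same diet than for PB in either model. The order of the median shifts depended on the scaling: PB in SD rats gave 0.04 with no scaling and 0.04 with quantile normalization. On the control diet 28 of 73 members were lower and 2 were higher in CAR KO than in SD rats, where 34.1% of 17724 features passed (19.7% lower, 14.4% higher). On the PB diet 37 were lower and 3 higher, where 42.1% of 16582 features passed (25.1% lower, 16.9% higher). The median difference of the members was -0.13 on the control diet and -0.18 on the PB diet (-0.08 and -0.06 over all features), a direction that turned to 0.06 and 0.02 with no scaling between arrays, where the median of all features moved to 0.12 and 0.14. With quantile normalization the medians were -0.04 and -0.07 and the calls 15 lower and 7 higher, and 23 lower and 9 higher. The shares of all features that passed with quantile normalization are not given here, and the shares above do not apply to those calls. Model and slide cannot be told apart in any of these values.

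Rpl14, a large-subunit protein, was among the members that differed most. It read 7.20, 7.04, 7.14 and 7.09 in SD control livers and 6.60, 6.61, 6.82 and 6.61 in CAR KO control livers. Every CAR KO liver lay below every SD liver, and the difference was -0.46 ± 0.068, 1.37-fold lower (adjusted p = 0.000162). On the PB diet the levels were 7.13, 7.25, 7.17 and 7.15 in SD and 6.69, 6.67, 6.71 and 6.50 in CAR KO livers, again without overlap (-0.53, 1.45-fold lower, adjusted p = 3.05e-05). Its second probe gave -0.52 and -0.51.

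Rpl11, which with Rpl5 forms the 5S particle that binds Mdm2 when ribosome assembly is disturbed, read 6.50, 6.53, 6.54 and 6.51 in SD control and 6.02, 6.01, 6.31 and 6.11 in CAR KO control livers. The groups did not overlap, with a difference of -0.41 ± 0.065 (1.33-fold lower, adjusted p = 0.000272) and -0.45 on the PB diet (adjusted p = 8.1e-05). Its partner Rpl5 differed by -0.04 on the control diet and by -0.20 on the PB diet (adjusted p = 0.0666), and did not pass on either. Rpl14 and Rpl11 kept negative differences with no scaling between arrays (-0.26 and -0.22 on the control diet) but did not pass there.

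Of the stalk proteins, Rplp0 was lower. It read 8.22, 8.14, 8.17 and 8.07 in SD control livers against 7.75, 7.74, 7.98 and 7.85 in CAR KO control livers, with no overlap (-0.32 ± 0.064, 1.25-fold lower, adjusted p = 0.00159), and its second probe gave -0.34. On the PB diet the difference was -0.42 (1.34-fold lower, adjusted p = 0.000144). Its partner Rplp1 read 6.73, 6.49, 6.61 and 6.55 in SD against 6.53, 6.60, 6.73 and 6.50 in CAR KO control livers, with overlapping groups and a difference of 0.03 or less on both diets. Rplp2 passed on the PB diet (-0.16, adjusted p = 0.043) and not on the control diet (-0.09).

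Among the small-subunit proteins 13 of 29 were lower and 1 was higher on the control diet, and 17 lower and 1 higher on the PB diet. Rps3a was lower by 0.34 on the log2 scale (difference -0.34, adjusted p = 0.000552) and Rps14 differed by -0.29 (adjusted p = 0.00118) on the control diet. Rps14 read 5.61, 5.50, 5.64 and 5.50 in SD against 5.27, 5.21, 5.36 and 5.25 in CAR KO control livers, which did not overlap. Rps6 and Rps3, which lies at the entry of the messenger RNA channel, both differed by -0.20 on the control diet (adjusted p = 0.0258 and 0.0178), and by -0.33 and -0.18 on the PB diet (adjusted p = 0.000746 and 0.0234). Rps4x passed on the PB diet alone, at -0.85 ± 0.15 (1.8-fold lower, adjusted p = 0.000369).

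Of the other large-subunit proteins, Rpl29 (-0.37, adjusted p = 0.000373), Rpl12 of the stalk base (-0.41, adjusted p = 0.012) and Rpl37a (-0.30, adjusted p = 0.00215) were lower on the control diet. Rpl4 was lower by 0.39 on the log2 scale on the PB diet (difference -0.39, adjusted p = 0.000234), as was Rpl3 (-0.24, adjusted p = 0.0142), which did not pass on the control diet (-0.10). Rpl22 and Rps27a did not pass on either diet. Rpl19 did not pass on the control diet (0.37 ± 0.16, adjusted p = 0.0876). Among the genes used as references, Rps18 was lower on both diets (-0.28 on each, adjusted p = 0.00565 and 0.00478), while Rpl13a did not pass on either (-0.13 and -0.06).

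Rps19, the small-subunit protein mutated in many patients with Diamond-Blackfan anaemia, went against the others by the probe used here. That probe read 5.54, 5.33, 5.47 and 5.37 in SD and 5.88, 5.76, 5.89 and 5.73 in CAR KO control livers, with no overlap (0.39 ± 0.067, 1.31-fold higher, adjusted p = 0.000586), and 0.38 on the PB diet. The other 2 probes of Rps19 went the opposite way on the control diet, at -0.42 (adjusted p = 5.57e-05) and -0.30 (adjusted p = 0.00692), and on the PB diet (-0.48 and -0.42). The direction for the gene is thus unsettled, and Rps19 is counted above only by the rule for the brightest probe. Rpl7a, with 1 probe, was higher on both diets (0.18 on the control diet, adjusted p = 0.0304), and Rpl15 was higher on the PB diet (0.24). For Rpsa, the laminin receptor homologue of the small subunit, the brighter probe differed by 0.03 and the dimmer by -0.41 (adjusted p = 0.000559).

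**Figure D3:**
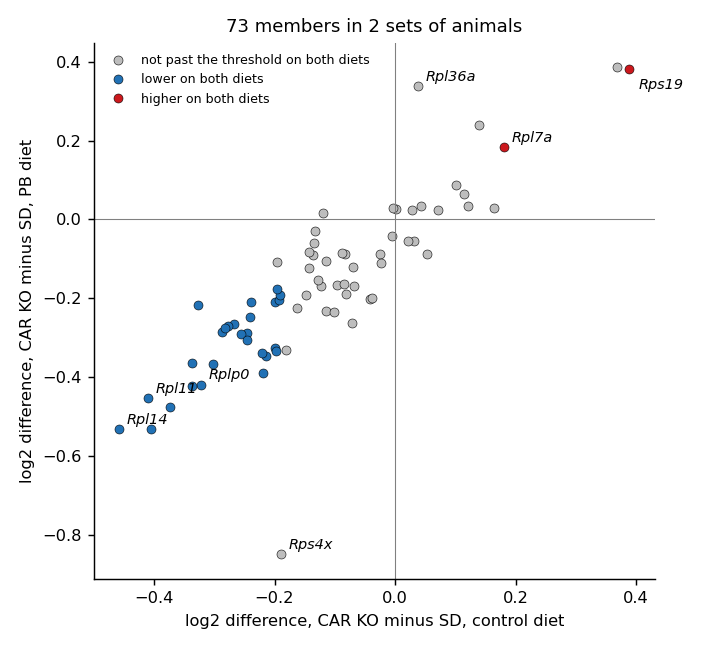
Log2 difference CAR KO minus SD on the control diet (x) and the PB diet (y) for the 73 members, blue where lower on both diets (27), red where higher on both (2, Rps19 and Rpl7a) and grey otherwise. Most points lie below and left of 0, near the diagonal, Rps4x lies well below it (-0.19 and -0.85), and with no scaling between arrays the members' medians turn to 0.06 and 0.02.

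Over both diets, 27 of 73 members were lower on each (14.9% of 16494 features) and 2 were higher on each (10.9%). The members' differences on the 2 diets, which come from different animals on the same pair of slides, were alike across genes (Pearson r = 0.851, Spearman rho = 0.874, n = 73 genes, which are not independent), as were those of all features (r = 0.812, n = 16494). A second reading came from the 56 additional probes of 44 members: 33 of them were lower and 3 higher on the control diet, and 38 had the sign of the probe used. Of the 22 additional probes whose gene passed by the probe used, 12 passed in the same direction and 4 in the opposite one: both of Rps19, 1 of Rpl10 (0.18, against -0.20 by the probe used) and 1 of Rps23 (0.31, against -0.22), which is counted among the 27. Under PB 37 were lower and 2 higher, and of the 27 whose gene passed by the probe used 18 passed in the same direction and 2, both of Rps19, in the opposite one. Of the 23 members with a C and at least 4 pyrimidines at the start, 12 were lower on the control diet and 11 on the PB diet (medians -0.19 on each), and of the 36 with another start 12 and 19 were lower (medians -0.13 and -0.17).

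Counts for related gene groups are to be read against the 19.7% (control diet) and 25.1% (PB diet) of all features that were lower. Of the 66 mitochondrial ribosomal proteins 31 were lower and 3 higher on the control diet (median -0.16), and of the 65 tested on the PB diet 41 were lower and 3 higher (median -0.23), with Mrpl14 at -0.73. Of the 37 assembly factors 8 were lower and 2 higher on the control diet, while 21 were lower and 0 higher on the PB diet, where Bop1 (-0.64), Nop2 (-0.60) and Imp4 (-0.56, adjusted p = 6.02e-07) led. Of the 16 translation factors, Rack1 (-0.18) and Tpt1 (-0.14) were lower and Eif3h (0.53) higher on the control diet, and 5 were lower and 3 higher on the PB diet (median -0.02). Of 10 RNA polymerase I genes and regulators, 4 were lower on the control diet, including Polr1b (-0.47) and Ubtf (-0.23). On the PB diet 2 of the 9 tested were lower. Fau, which encodes a ribosomal protein fused to a ubiquitin-like domain and lies outside the naming rule, was lower on the control diet (-0.17).

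Counts of cell type markers are read against the 19.7% (control diet) and 25.1% (PB diet) of all features that were lower. On the control diet 8 of 14 hepatocyte markers and 4 of 14 macrophage markers were lower in CAR KO livers and none was higher, with summed hepatocyte levels of 4442 to 4683 against 5131 to 5329 in SD rats and summed macrophage levels of 81.6 to 125 against 115 to 130. Of 11 stellate cell markers 3 were lower and 1 higher, and of 10 lymphocyte markers 2 were lower and 2 higher. Lower too were 1 of 8 endothelial and 1 of 5 cholangiocyte markers, while 0 of 4 erythroid and 0 of 3 neutrophil markers passed. Under PB 3 hepatocyte and 6 macrophage markers were lower, and 1 macrophage marker and 2 of 4 erythroid markers were higher. Their part in the lower ribosomal protein levels was not tested. In bulk liver, fewer cells of a type and less RNA per cell cannot be told apart.

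**Figure D4:**
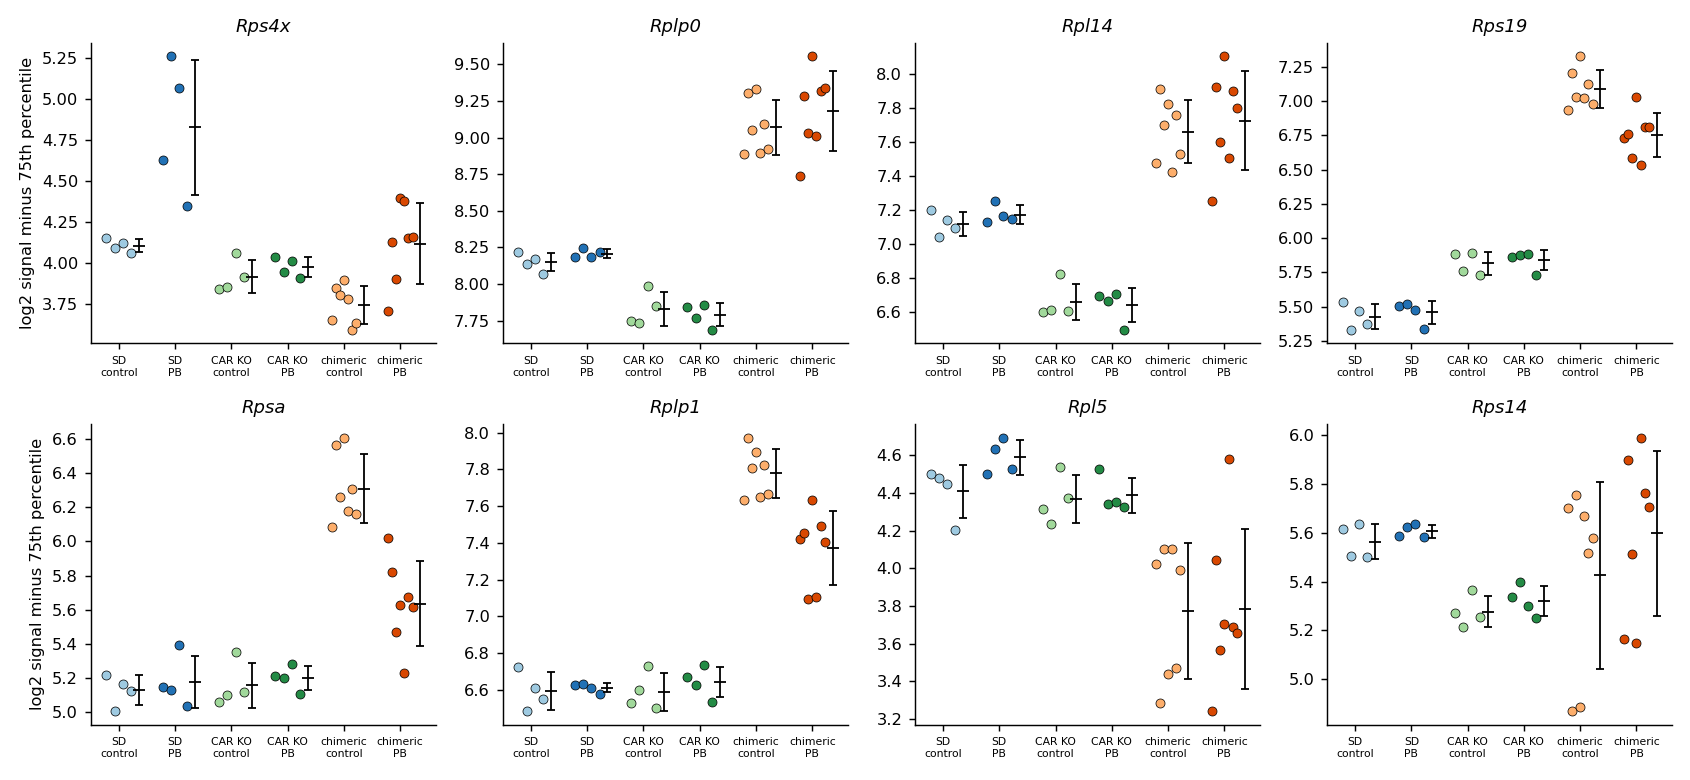
Levels (log2 relative to the array's 75th percentile) of Rps4x, Rplp0, Rpl14, Rps19, Rpsa, Rplp1, Rpl5 and Rps14 in the 6 groups, with points for arrays and bars for mean ± SD (n = 4 per rat group, 7 per chimeric group). Rps4x is highest in SD PB livers (4.83 ± 0.41), Rplp0 is highest in chimeric livers (9.07 ± 0.19 and 9.18 ± 0.27), and Rpl5 is lower and more scattered there (3.77 ± 0.36 and 3.78 ± 0.42).

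Livers of chimeric mice with rat hepatocytes carried far higher scaled levels of the ribosomal proteins than SD livers. On the control diet 70 of 73 members were higher, 2 were lower and 1 did not pass, where 74.6% of 17160 features passed (38.7% higher, 35.9% lower). On the PB diet 70 were higher and 2 lower, where 72.7% of 15803 features passed (38.8% higher, 33.9% lower). The median difference was 0.94 and 0.89 (0.04 and 0.01 over all features). Its sign was positive under every scaling tried, but its size ranged from 0.27 to 1.34 on the control diet and from 0.11 to 1.57 on the PB diet. With any single offset per array, the members' median stood 0.906 and 0.881 above the median of all features; with quantile normalization it stood 0.299 and 0.111 above it.

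**Figure D5:**
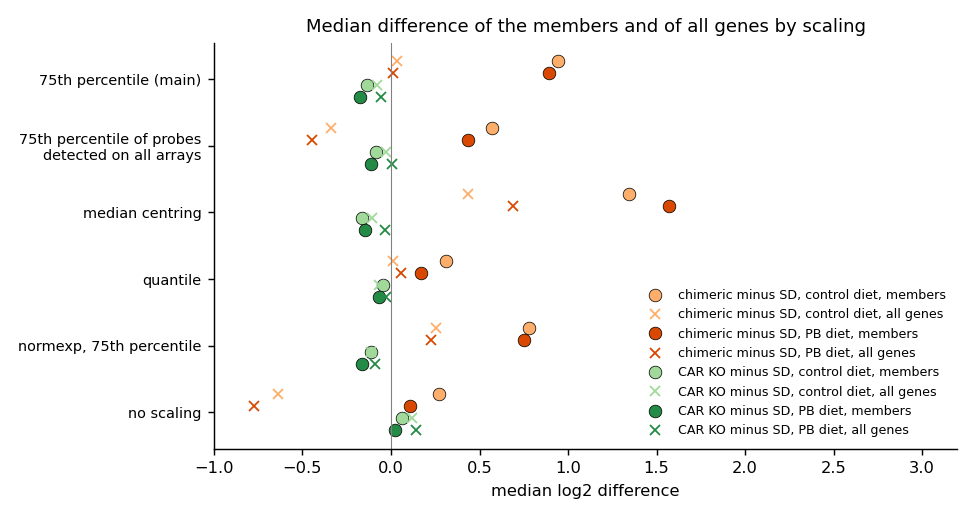
Median log2 difference of the 73 members (circles) and of all features tested (crosses) under 6 ways of scaling the arrays, for CAR KO minus SD and chimeric minus SD on each diet. The chimeric medians of the members are positive under every scaling (0.11 to 1.57), and the CAR KO medians are negative except with no scaling between arrays (0.06 and 0.02).

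Without scaling, 43 members were higher and 6 lower on the control diet and 22 were higher and 14 lower on the PB diet, while the median of all features was -0.64 and -0.78. With quantile normalization the calls were 50 higher and 9 lower, and 41 higher and 9 lower. The shares of all features that passed under those settings are not given here, so these counts describe the members alone. The chimeric arrays were dimmer than the rat arrays, carried fewer probes well above background (55.3% against 64.1% on the control diet) and lay on other slides that were scanned apart from the rat slides, so model and slide cannot be told apart.

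The stalk, of 3 genes, had the highest median by group, and no test compared the groups. On the control diet all 3 stalk genes were higher with a median of 1.18. The large subunit stood at 0.97 (40 of 41 higher) and the small subunit at 0.81 (27 of 29 higher). On the PB diet the medians lay closer together, at 0.97 for the stalk, 0.90 for the large subunit and 0.86 for the small subunit. Rplp1 read 6.73, 6.49, 6.61 and 6.55 in SD control livers, while the 7 chimeric control livers ran from 7.63 through a median of 7.81 to 7.97. The groups did not overlap, and the difference was 1.18 (adjusted p = 2.55e-11). Rplp2 was higher by 1.25 (adjusted p = 1.91e-11) and Rplp0 by 0.92 ± 0.12, 1.89-fold (adjusted p = 8.33e-08).

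For Rplp0 the chimeric control levels ran from 8.89 through 9.05 to 9.33, above all 4 SD levels, of which 8.22 was the highest. On the PB diet Rplp0 was higher by 0.97 (adjusted p = 2.42e-08) and Rplp2 by 1.33 (adjusted p = 4.59e-12). Rplp1, higher by 0.76, was close to 0 on that diet with no scaling between arrays (-0.03).

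In the small subunit Rps19 had the largest difference on the control diet, and here its probes shared a direction. The probe used read 5.54, 5.33, 5.47 and 5.37 in SD livers and ran from 6.94 through 7.03 to 7.33 in chimeric livers (1.66 ± 0.089, 3.16-fold, adjusted p = 6.06e-15). The other probes of Rps19 gave 1.13 and 0.49. Rps27 (1.33), Rps27a, which is made as a fusion with ubiquitin (1.22), Rps3 (0.92), Rps6 (0.80) and Rps18 (0.80) were also higher. Rpsa was higher by 1.18 on the control diet (adjusted p = 1.85e-09) and by 0.46 on the PB diet (adjusted p = 0.00112; -0.33 with no scaling between arrays), while its dimmer probe passed on neither diet (-0.43 and -0.16).

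In the large subunit, Rpl39, a small protein of the exit tunnel, read 5.67, 5.45, 5.63 and 5.49 in SD control livers and 6.77, 6.97 and 7.34 at the lowest, median and highest of the chimeric controls. It was 2.75-fold higher (1.46, adjusted p = 2.87e-12), again with no overlap. Rpl7a was 2.68-fold higher (1.42, adjusted p = 3.72e-14), and Rpl9 (1.35), Rpl17 (1.22), Rpl22 (1.12) and Rpl3 (0.87) were higher too. On the PB diet Rpl10, which is placed late in large-subunit assembly, was 2.74-fold higher (1.45, adjusted p = 8.07e-11): it lay between 7.43 and 7.60 in SD PB livers and between 8.39 and 9.37 in chimeric PB livers.

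Members at the low end depended on the scaling. Rpl11 was higher by 0.55 on the control diet (adjusted p = 0.000156) and Rpl13a by 0.31 (adjusted p = 0.0111). With quantile normalization Rpl11 and Rpl13a stood at -0.17 and -0.42, and with no scaling between arrays at -0.12 and -0.36.

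The members that were not higher were Rpl5, Rps4x and Rps14. Rpl5 read 4.50, 4.48, 4.45 and 4.20 in SD control livers and ran from 3.28 through 3.99 to 4.10 in chimeric controls, so every chimeric liver lay below every SD liver. It was 1.55-fold lower (-0.64 ± 0.18, adjusted p = 0.0025), and on the PB diet 1.75-fold lower (-0.81, adjusted p = 0.000235), with some overlap. Its chimeric control levels fell into a low set of 3 (3.28, 3.44 and 3.47 in controls 2, 4 and 6) and a set of 4 from 3.99 to 4.10.

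Rps4x read 3.60, 3.78 and 3.90 at the lowest, median and highest of the chimeric controls, below all SD controls (4.06 to 4.15). It was 1.29-fold lower on the control diet (-0.36 ± 0.13, adjusted p = 0.0155; 0.04 with arrays centred on their median) and 1.63-fold lower on the PB diet (-0.71, adjusted p = 2.67e-05), where the groups overlapped. Rps14 ran from 4.87 through 5.58 to 5.76 in chimeric controls, around the SD levels of 5.50 to 5.64. Its difference was -0.14 ± 0.16 (adjusted p = 0.446) on the control diet and -0.01 (adjusted p = 0.962) on the PB diet. Controls 2 and 4, which were low for Rpl5, were also the lowest for Rps14 (4.87 and 4.88), and both had a dim 75th percentile (235 and 216 units). Control 6, also low for Rpl5, read 5.52 for Rps14 at 286 units. PB 1 read 3.24 for Rpl5 and 5.17 for Rps14 at 312 units. The part of array brightness was not tested.

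On both diets together, 70 members were higher (31.9% of 15708 features) and 2 were lower (27%). The differences on the 2 diets came from different animals and correlated across members (Pearson r = 0.877, Spearman rho = 0.761, n = 73 genes, not independent), as did those of all features (r = 0.871). Of 56 additional probes on the control diet 43 were higher and 2 lower, and 50 had the sign of the probe used; Rps2 had another probe that passed in the opposite direction. Members with a C and at least 4 pyrimidines at the start had a median of 0.95 and those with another start 0.91.

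Other genes of the translation apparatus were split more evenly than the members, although most mitochondrial ribosomal proteins and translation factors were higher. Their counts are read against the 38.7% of all features that were higher and the 35.9% that were lower. Of the 37 assembly factors 18 were higher and 12 lower on the control diet, with Npm1, the nucleolar phosphoprotein, at 1.63 and Nmd3, the export adaptor of the large subunit, at -1.47. Of the 66 mitochondrial ribosomal proteins 46 were higher and 15 lower (median 0.56), and of the 16 translation factors 11 were higher and 3 lower (median 0.54), among them Eef1b2 (1.09) and Eef1a1 (0.76). Fau was higher by 0.86, and Rpl22l1, the paralogue of Rpl22, was higher by 1.55.

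Counts of cell type markers in this contrast are read against the 35.9% of all features that were lower and the 38.7% that were higher. On the control diet 11 of 14 macrophage markers, 7 of 11 stellate cell markers, 6 of 8 endothelial markers and 8 of 10 lymphocyte markers were lower in chimeric livers, while 1 macrophage and 3 stellate cell markers were higher; non-hepatocyte cells there are those of the mouse host. The summed macrophage level was 63.8 to 75.4 against 115 to 130 in SD livers, and the summed erythroid level was 1.30 to 2.01 against 99.2 to 257. The summed hepatocyte level overlapped (4980 to 5710 against 5131 to 5329), although 7 of 14 hepatocyte markers were lower and 1 higher. The part of these cells in the ribosomal protein difference was not tested.

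In chimeric mice PB changed few members with the scaling used here, and the count depended on the scaling. Of 73 members 2 were higher and 6 lower in PB livers, where 42.7% of 14445 features passed (19.3% higher, 23.4% lower). The median difference was 0.01 beside 0.06 over all features, and its sign turned with quantile normalization (-0.03), with normexp background correction (-0.03), with no scaling between arrays (-0.12) and with the percentile taken over probes detected on all arrays (-0.10). With quantile normalization 12 were higher and 20 lower, and with arrays centred on their median, which moved all features to 0.35, 14 were higher and 1 lower. The shares of all features that passed under those settings are not given here. With slide as a block, a fit in which PB 1 alone is compared with the 7 controls on its slide, 0 members passed and the median was -0.29.

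Rpsa had the largest difference. Its chimeric control levels ran from 6.09 through 6.26 to 6.61 and its PB levels from 5.23 through 5.63 to 6.02. All 7 PB livers lay below all 7 controls, a 1.6-fold fall (-0.67 ± 0.13, adjusted p = 0.000761), which was -0.29 with slide as a block (adjusted p = 0.754; 2.81e-06 to 0.754 over the settings). Its second, dimmer probe gave 0.40 ± 0.38 (adjusted p = 0.414).

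Rplp1 also fell without overlap, from 7.63, 7.81 and 7.97 at the lowest, median and highest control to 7.09, 7.42 and 7.63 under PB, the highest PB liver lying just under the lowest control (-0.41 ± 0.11, 1.32-fold lower, adjusted p = 0.00687). Its difference was -0.36 for PB 1 against the controls of its slide and -0.41 for the 6 PB arrays on the other slide. It did not pass with arrays centred on their median (-0.12). The other stalk genes did not pass (Rplp0 0.11, Rplp2 0.18), nor did Rpl3 (0.24), Rps18 (0.14), Rpl11 (0.13), Rps6 (0.04), Rpl13a (0.03), Rpl5 (0.01), Rpl22 (-0.02), Rps3 (-0.06) or Rps27a (-0.23).

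Rps19 fell by the probe used (-0.34 ± 0.10, adjusted p = 0.014), but another of its probes rose (0.31, adjusted p = 0.0413) and the remaining one gave 0.16. Rpl17 (-0.28, adjusted p = 0.0362), Rpl30 (-0.29, adjusted p = 0.0369) and Rpl7a (-0.26, adjusted p = 0.0447) were lower too. The members that rose were Rps4x and Rpl12. Rps4x ran from 3.60 to 3.90 in controls and from 3.71 through 4.16 to 4.40 under PB, where the single array on the controls' slide, PB 1, was the lowest (0.37 ± 0.12, 1.3-fold, adjusted p = 0.0171). Rpl12 differed by 0.34 ± 0.13 (adjusted p = 0.0479). With slide as a block Rps4x and Rpl12 stood at -0.04 and -0.23. PB 1 lay below the range of the 7 controls for 54 of 73 members and above it for 0. The share of all features below that range was not counted, and all members share the scaling of that array. The count is thus not read as a result about the members.

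Related groups were read in the same animals, and no test compared them with the members. Of the 37 assembly factors 10 rose, beside 19.3% of all features, and 0 fell (median 0.26), among them Bysl of the small-subunit pathway (0.98), Nop16 (0.46) and Mrto4 (0.41). Of the 66 mitochondrial ribosomal proteins 30 rose and 2 fell (median 0.36), with Mrpl14 at 0.86. Of 9 RNA polymerase I genes and regulators tested, 1 rose and 0 fell: Myc rose by 1.26 (limma, adjusted p = 0.0425). In SD and CAR KO rats 0 of 10 in that list passed for PB, with highest differences of 1.42 and 0.98. Of 11 genes of the mTORC1 and LARP1 list, Rheb (0.49), Tsc2 (0.62) and Rptor (0.33) were among 4 that rose, while Eif4ebp2 fell (-0.38). These lists were read on the same arrays and carry the same slide limit. The marker lists are read against the 23.4% of all features that were lower and the 19.3% that were higher. Of 14 hepatocyte markers 4 were lower and 1 higher, and of 9 macrophage markers tested 5 were lower and 1 higher. Of 10 stellate cell markers 5 were lower and 1 higher, and 3 of 3 lymphocyte markers were lower (median -0.67). The part of these cells was not tested.

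The response to PB differed between chimeric mice and SD rats for 4 members, all lower in chimeric mice, where 18.9% of 17255 features passed (12.6% lower, 6.29% higher). These were Rpsa (-0.72 ± 0.17, adjusted p = 0.00351), Rpl13 (-0.43 ± 0.14, adjusted p = 0.0236), Rplp1 (-0.43 ± 0.13, adjusted p = 0.0259) and Rps19 (-0.37 ± 0.13, adjusted p = 0.0404). Of the 3 additional probes whose gene passed by the probe used, 0 passed in either direction. Rpl13 and Rplp1 have 1 probe each. The members' median was -0.07 beside 0.08 over all features, and turned to 0.20 with arrays centred on their median. With slide as a block 0 members passed and the median was -0.33. The test for Rps4x did not pass, so its response in SD rats and in chimeric mice was not shown to differ.

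Of all the members, Rps4x was the one with a passing rise under PB in SD rats (1.65-fold). It was also one of the 2 that passed upward in chimeric mice (1.3-fold), while the difference in CAR KO rats was 0.06. The SD rise did not pass on the SD arrays alone (limma, adjusted p = 0.113), and the chimeric value was -0.04 with slide as a block. The responses of CAR KO and SD rats were not shown to differ for Rps4x (limma, adjusted p = 0.186), which has 1 probe.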

How the data were processed

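Livers of 30 male animals were measured on 1-colour arrays, with Cy3-labelled RNA per the labels' protocols. Groups and replicate numbers came from the sample titles. Per the file headers, Agilent Feature Extraction 10.7.3.1 (protocol GE1_107_Sep09) read the arrays; the deposited intensity values are its processed signal, background-subtracted within each array and not scaled between arrays. The authors' series matrix holds log2 values, which lay within 0.0138 of log2 signal minus each array's 75th percentile (column medians -4.22 to -3.38); it served as an alternative.

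Control spots (4259) were dropped, outlier-marked spots set missing, and spots of a probe averaged, giving 30367 probes. The tested value was the log2 processed signal after subtracting the array's own 75th percentile. Probes were named by transcript accession through a RefSeq table (GRCr8): 18004 probes matched 15170 symbols. Features well above background on at least 75% of the arrays of a compared group were tested with limma 3.58.1 (R 4.3.3), on 16 rat, 14 chimeric or all 30 arrays, with Benjamini-Hochberg adjustment over all features and a threshold of 0.05; every adjusted p quoted comes from this test. Values for second probes come from the same test run on probes. The members named were 14 of known role in every comparison, up to 10 passing members with the smallest adjusted p, and the 3 largest differences in each direction; up to 4 passing genes per related list were named the same way. A few genes that the rule names are not reported here. The members and lists were chosen with earlier results of these data known.

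The correlation of same-numbered animals across diets ran from -0.119 to 0.0812 in SD, -0.261 to 0.130 in CAR KO and -0.230 to 0.796 in chimeric animals; it was high in some chimeric pairs, but not above 0.1 in every pair of any model, so numbers were not treated as pairs. On simulated data with 200 genes changed by 1 on the log2 scale, 85% were recovered for PB in SD rats (17009 features), 78.5% for PB in chimeric mice (14445) and 80% for chimeric minus SD (17160). Sequences were read from RefSeq promoter entries. The number of arrays limits the precision.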

Additional observations from a re-analysis of the deposited data

Results flagged for a closer look

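Single livers that stood apart from the rest of their group were few: 8 of 114 groups of values for the named members, where chance gives about 1 in 20. All but 1 of these lay in CAR KO rats. Rpl5 read 4.53 in CAR KO PB 1 against 4.33 to 4.35 in the others. CAR KO PB 4 was low for Rpl11 (6.06 against 6.16 to 6.17), Rps19 (5.73 against 5.86 to 5.89) and Rps27a (5.89 against 6.06 to 6.07). CAR KO control 3 was high for Rps3 (6.38 against 6.26 to 6.27) and Rpl14 (6.82 against 6.60 to 6.61), and CAR KO control 4 was low for Rps27a (6.04 against 6.12 to 6.13). Among SD rats, Rps6 read 5.60 in PB 4 against 5.71 to 5.73.

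The response to PB differed between chimeric mice and SD rats, by the test of the difference itself, for Rpsa (-0.72), Rpl13 (-0.43), Rplp1 (-0.43) and Rps19 (-0.37), each lower in chimeric mice. Of the 3 additional probes whose gene passed by the probe used, 0 passed in the same direction, and Rpl13 and Rplp1 have 1 probe each. None of the 4 passed with slide as a block.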

How the results depend on the processing

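Leaving out 1 array at a time gave these counts of passing members and medians: PB in SD rats 1 and 0.04 to 0.08; PB in CAR KO rats 0 and -0.00094 to 0.06; their difference 0 to 1 (1 without SD PB 4) and -0.06 to -0.0049; CAR KO minus SD 23 to 33 and -0.17 to -0.09 (control diet), 34 to 40 and -0.20 to -0.14 (PB diet); chimeric minus SD 70 to 72 and 0.90 to 0.96 (control diet), 72 and 0.82 to 0.93 (PB diet). For PB in chimeric mice the count ran from 4 to 12 and the median from -0.05 to 0.05: 12 without PB 1, 4 without control 2, 3 or 6 or PB 3, 5 or 7, and 5 without control 4 or PB 2. The response difference of chimeric mice and SD rats ran from 1 to 7 (7 without chimeric PB 4, 1 without SD control 2 or 4, 2 without SD PB 3), with medians of -0.13 to -0.02.

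Fewer arrays or other ones in the fit changed counts: only the SD arrays left 0 for PB in SD rats, all 30 arrays left 3 and 13 for CAR KO minus SD on the control and PB diet and gave 18 for PB in chimeric mice, and only the compared arrays left 1 for the response difference of chimeric mice and SD rats. With no scaling 6 and 10 members passed for CAR KO minus SD (medians 0.061 and 0.022; 100% and 60% of them higher, against 6.67% and 7.5%), and Rplp2 (0.036) and Rps3 (0.022) turned on the PB diet; 27 passed for PB in chimeric mice (3.70% higher), 36 for chimeric minus SD under PB (medians 0.27 and 0.11), 14 for the response difference; and Rplp1 (-0.028), Rpsa (-0.33), Rpl11 (-0.18; -0.12 on the control diet), Rpl13a (-0.41; -0.36) and Rps6 (-0.064) turned for chimeric minus SD. Quantile normalization gave CAR KO minus SD medians of -0.044 and -0.068 (31.8% and 28.1% of calls higher), 32 members for PB in chimeric mice (37.5%), 17 for the response difference, and chimeric minus SD medians of 0.31 and 0.17 (84.7% and 82%), with Rpl11 (-0.17 and -0.12), Rpl13a (-0.42 and -0.33) and Rpsa (-0.18, PB diet) turned. Median centring gave a median response difference of 0.016 for CAR KO against SD; 15 members with a median of 0.29 for PB in chimeric mice (93.3% against 25%), where Rpl17 (0.0030) and Rpl7a (0.025) turned; 0 with a median of 0.20 for the response difference; and chimeric minus SD medians of 1.34 and 1.57, with Rps4x (0.040, control diet) and Rps14 (0.67, PB diet) turned. With the percentile over probes detected on all arrays, CAR KO minus SD under PB had a median of -0.11 (17.2% of calls higher on the control diet), 23 members passed for PB in chimeric mice (4.35%) and 14 for the response difference, and chimeric minus SD medians were 0.57 and 0.43 (Rpl13a -0.063 and -0.082). Normexp on the median signal gave 0.78 for chimeric minus SD on the control diet and 8 members for the response difference. The mean of all probes turned Rps19 (-0.11 and -0.17) and Rpsa (-0.23) for CAR KO minus SD and Rps19 (0.046) for PB in chimeric mice, where 5 passed; without the filter on dim probes 4 passed. Slide as a block left 0 for PB in chimeric mice (median -0.29; Rps4x -0.039, Rpl12 -0.23) and 0 for the response difference (median -0.33). The causes were not tested. Shares of all features under these settings are not given, so the counts describe the members alone. Normexp on the median signal, no scaling, the percentile over detected probes and slide row were chosen after seeing the data; normexp on the mean signal was not run.

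With the replicate block (3 of 7 chimeric, 1 of 4 SD and 1 of 4 CAR KO numbers correlated best with their own, a hint from the data and not the design), PB in chimeric mice gave 11 members, the response difference with SD rats 3, CAR KO minus SD under PB 41 and chimeric minus SD on the control diet 71; no other count moved. The median for PB in chimeric mice lay near 0 and turned with several settings; the other medians kept their sign except as given. Values of the named members kept their direction and side of the threshold in 399 of 400 settings for PB in SD rats, 428 of 480 and 430 of 480 for CAR KO minus SD, 467 of 567 for PB in chimeric mice, 468 of 484 and 502 of 528 for chimeric minus SD, and 574 of 612 for the response difference. Slide could not be a block between models, whose arrays lie on separate slides. The dimmer chimeric arrays limit weak probes most, and all members were well above background.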
